A study of Mus musculus with 8 samples.

Results

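Excitation-contraction coupling is the step by which an electrical signal in the muscle cell membrane releases calcium from the sarcoplasmic reticulum. Called binding of myogenin and p300 was examined at 10 genes of this machinery in mouse: Cacna1s, Cacng1, Ryr1, Trdn, Casq1, Casq2, Jph1, Jph2, Atp2a1 and Atp2a2. These are 10 of the 22367 protein-coding genes in the GENCODE vM1 annotation of the mm9 build. The genes were chosen by name for their role, and every interval of the 4 deposited peak lists that lay within 50 kb of a gene body was taken. This gave 13 of the 5912 intervals of the control myogenin list (Myog_Ctl), 16 of the 6642 of the bexarotene myogenin list (Myog_Bex), 22 of the 22051 of the control p300 list (p300_Ctl) and 5 of the 9154 of the bexarotene p300 list (p300_Bex).

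All libraries came from C2C12, a line of mouse myoblasts labelled with the strain C3H, whose cells fuse into myotubes when serum is low. The cells were placed in differentiation medium with 2% horse serum and collected after 24 h, either without further treatment (Ctl) or with 50 nM bexarotene added at the start of differentiation (Bex). Bexarotene is an agonist of the retinoid X receptor (RXR). Chromatin was precipitated with an antibody to myogenin or to p300, with 1 library for each factor and condition, so there is no replicate error and no test between conditions, and a single cell line stands for the tissue. The lists hold positions of called peaks and no tag counts, so the strength of binding is not known from them, and they hold no expression values by which the cell type could be checked. A peak listed in 1 condition only is a difference in calling and does not show that the other condition had no signal there.

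In skeletal muscle the voltage sensor of the transverse tubule opens the calcium release channel of the sarcoplasmic reticulum across a narrow junction. Calcium comes off buffers inside the reticulum and leaves through that channel, and pumps return it to the reticulum. Myogenin is a basic helix-loop-helix factor that is needed for terminal differentiation of myoblasts and binds E-boxes, while p300 is a histone acetyltransferase whose binding is widely used to mark enhancers. Many genes of this machinery are switched on as myoblasts become myotubes.

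Of the 10 genes, 8 had a Myog_Ctl interval within 50 kb, against 32.3% of all protein-coding genes, and 9 had a Myog_Bex interval, against 32.9%. A p300_Ctl interval was found at 7 genes, against 53.8% of all protein-coding genes, and a p300_Bex interval at 3, against 35.2%. Both factors were called at 7 genes (34.2% of all protein-coding genes), myogenin alone at Atp2a2 and Trdn, and neither at Atp2a1, a state shared with 36.1% of all protein-coding genes. With windows of 10 kb the genes with Myog_Ctl and Myog_Bex were 3 and 5. Where the nearest protein-coding transcription start had to be the member's own, they were 4 and 5. At 50 kb the member windows were longer than most, with a median of 160.9 kb against 115.4 kb. The counts were therefore also set per length searched.

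The density of myogenin intervals in the 1.89 Mb around the 10 genes was 0.687 per 100 kb in control (exact 95% Poisson interval 0.366 to 1.17) and 0.845 per 100 kb with bexarotene (0.483 to 1.37). Over the windows of all protein-coding genes together these densities were 0.313 and 0.345 per 100 kb, below the lower bound for the members in both conditions. The density of p300 was 1.16 per 100 kb in control (0.728 to 1.76) and 0.264 per 100 kb with bexarotene (0.0857 to 0.616), and the values over all protein-coding windows, 1.05 and 0.432, lay inside these intervals. In windows of this size the myogenin lists were thus denser at these genes than at coding genes at large and the p300 lists were not distinguishable from them at this number of intervals. With windows of 10 kb the densities of Myog_Ctl and Myog_Bex were 0.366 and 0.914 per 100 kb, against 0.355 and 0.381 over all protein-coding windows of that size, and the interval for Myog_Ctl (0.0997 to 0.937) then held the control value of all protein-coding windows. These intervals cover counting error only, and neighbouring intervals of 1 locus are not independent. The members were also chosen with earlier results of these data known, which the Poisson intervals do not take into account.

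**Figure D1:**
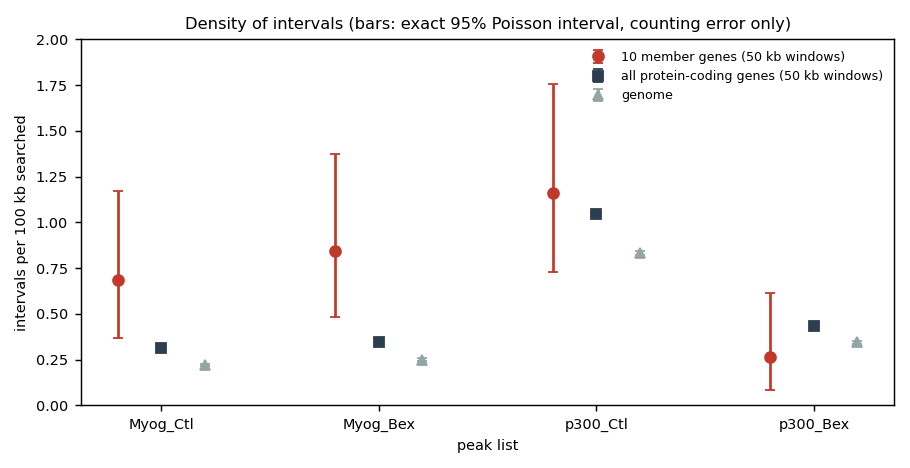
Intervals per 100 kb of searched sequence (vertical axis) in each of the 4 lists (horizontal axis), for the windows of 50 kb around the 10 genes, the same windows around all protein-coding genes, and the genome, with exact 95% Poisson intervals as bars. The member points for Myog_Ctl and Myog_Bex, at 0.687 and 0.845, lie above the other points of the same list. The bars of the member points for p300 span the value of all protein-coding genes.

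Control and bexarotene intervals sharing 1 bp or more were joined into a region, which was called shared where both conditions contributed and unique to control or to bexarotene otherwise. The myogenin intervals made 20 regions, of which 9 were shared, 4 were unique to control and 7 were unique to bexarotene. Shared regions were thus 45% of the members' myogenin regions (95% Wilson interval 25.8 to 65.8) against 31.3% over the whole lists, regions unique to bexarotene 35% (18.1 to 56.7) against 38.2%, and regions unique to control 20% (8.07 to 41.6) against 30.6%. All 3 values of the whole lists lay inside the intervals of the members. A shared myogenin region was present at 7 genes (17.5% of all protein-coding genes), a region unique to bexarotene at 5 (25.1%) and a region unique to control at 3 (23.0%). With windows of 10 kb the regions unique to control fell to 0, the shared ones to 4 and those unique to bexarotene to 6. The same counts were found where the nearest protein-coding transcription start had to be the member's own. They were also found over intervals longer than the smallest length of their list, but there some regions changed class. The shared regions of Cacna1s, Cacng1 and Casq2 lost a control interval of the smallest length and so became unique to bexarotene. Of the 7 regions unique to bexarotene 4 had the smallest length and dropped out.

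The p300 intervals made 22 regions, of which 17 were unique to control, 5 were shared and none was unique to bexarotene. The Wilson interval for 0 of 22 reached 14.9%, which includes the 7.76% of the whole lists. At the genes, 7 had a p300 region unique to control (47.5% of all protein-coding genes) and 3 had a shared one (27.7%). The share unique to control was 77.3% (56.6 to 89.9) against 62.1% over the whole lists, where the p300_Bex list holds 0.415 times as many intervals as the p300_Ctl list. At the 10 genes this ratio was 0.227, and the part of list size in the loss of p300 calls was not tested. Cacng1 held 3 of the 5 shared p300 regions, and without it the counts were 18 p300_Ctl and 2 p300_Bex intervals.

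**Figure D2:**
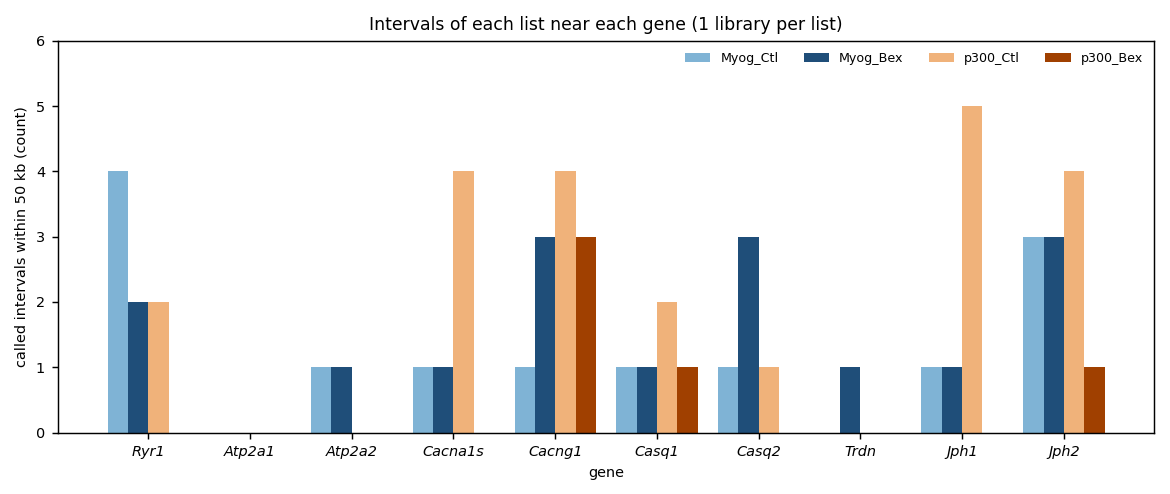
Number of called intervals within 50 kb of each gene (vertical axis) by gene (horizontal axis), with 1 bar for each list. Bars for p300_Bex stand at Cacng1, Casq1 and Jph2 only, Myog_Bex exceeds Myog_Ctl at Cacng1, Casq2 and Trdn, and Ryr1 is the gene where Myog_Ctl exceeds Myog_Bex.

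The genes differed widely among themselves. Cacng1 and Jph2 each had 11 intervals over the 4 lists, a number reached by 8.49% of all protein-coding genes, while Ryr1 had 8, Jph1 7, Cacna1s 6, Casq1 and Casq2 5 each, Atp2a2 2, Trdn 1 and Atp2a1 none. Per 100 kb of window Cacng1 was the densest with 9.71 intervals, followed by Jph2 with 6.80, and Trdn, the gene with the longest body at 393 kb, had 0.203. The median distance from the region's centre to the nearest transcription start site (TSS) of the member was 27.9 kb for myogenin (0.12 to 166) and 38.3 kb for p300 (0.234 to 170). A centre within 1 kb of any protein-coding TSS was held by 2 of 13 Myog_Ctl (15.4%, 95% Wilson interval 4.33 to 42.2), 2 of 16 Myog_Bex (12.5%, 3.50 to 36.0), 1 of 22 p300_Ctl (4.55%, 0.807 to 21.8) and 1 of 5 p300_Bex intervals (20%, 3.62 to 62.4). The whole lists had 24.2%, 12.5%, 11.02% and 12.4%, each inside the members' interval. Of the 20 myogenin regions 9 lay in the gene body, 5 upstream and 6 downstream, and of the 22 p300 regions the numbers were 11, 5 and 6. No such split is given for all protein-coding genes, so these numbers describe the members only. The nearest protein-coding TSS was the member's own for 10 myogenin regions, at Cacng1, Casq2, Trdn, Jph1 and Jph2, so 5 of the 10 genes held the TSS nearest to a myogenin region, against 22.2% of all protein-coding genes. For p300 this was so for 15 regions at 6 genes, against 33.8% of all protein-coding genes. At the limit of the search the outermost interval taken was a p300_Ctl interval 47.9 kb from the Ryr1 body, and the first ones left out were a p300_Ctl interval 50.4 kb from Ryr1 and a p300_Bex interval 50.9 kb from Cacng1.

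**Figure D3:**
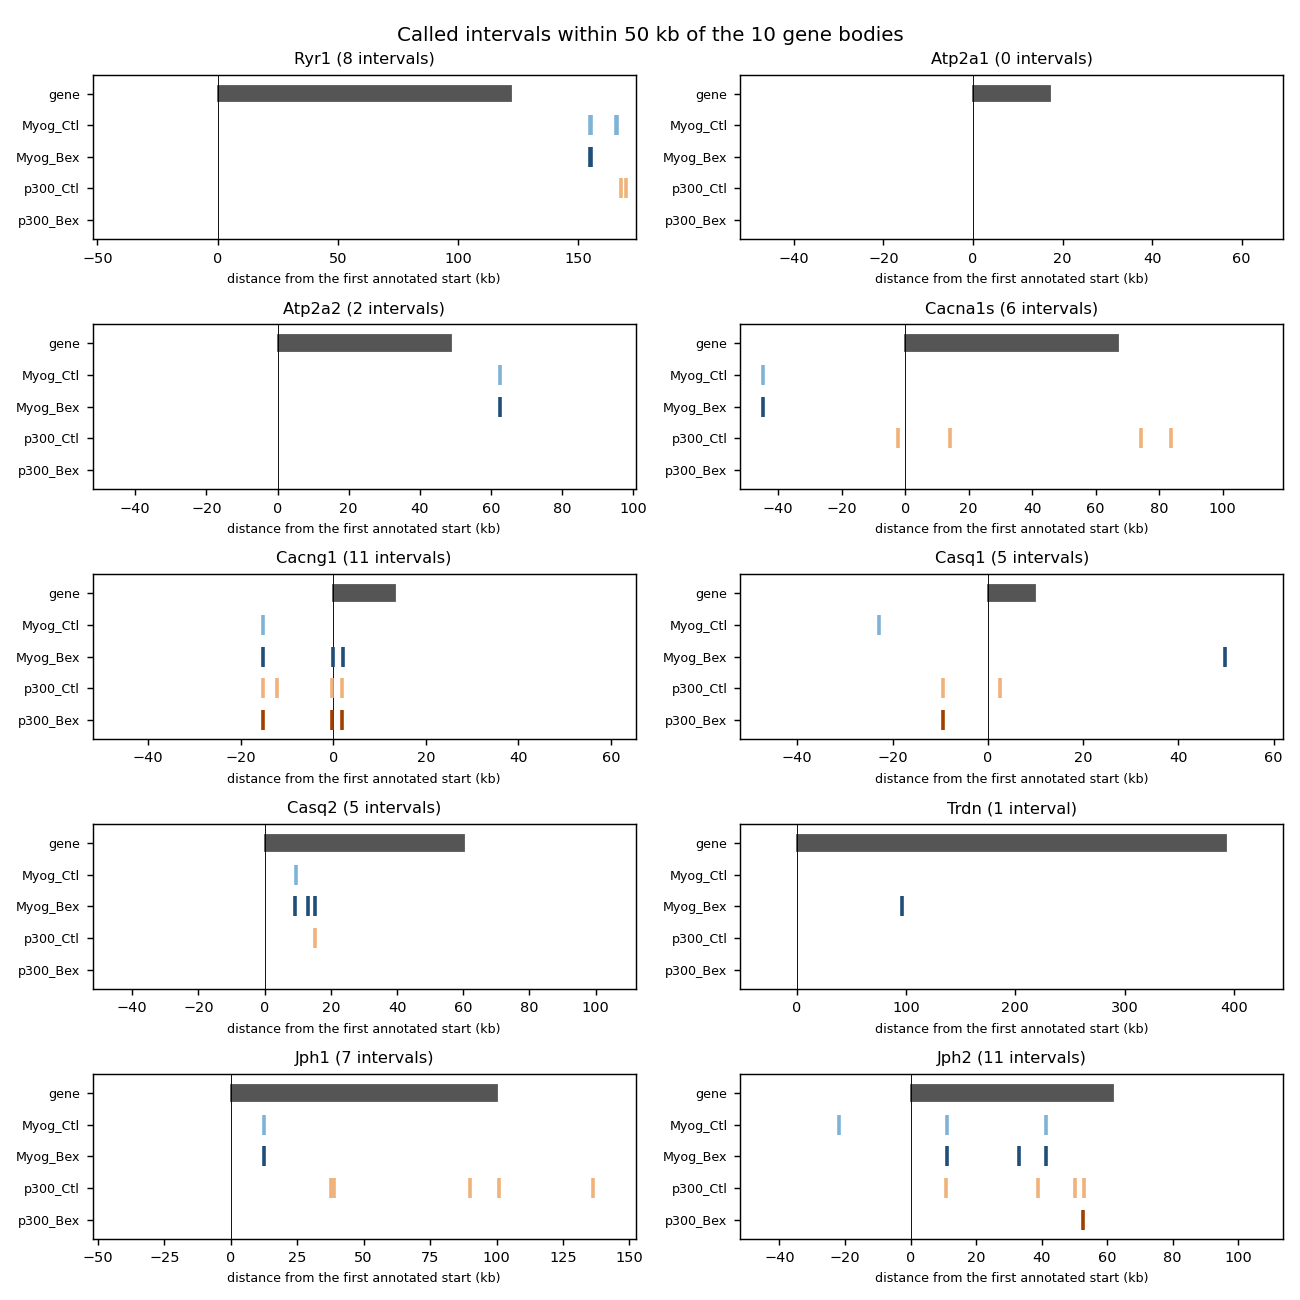
Maps of the 10 loci, with the distance from the first annotated start in kb along the direction of transcription (horizontal axis), the gene body as a grey bar and each interval of the 4 lists as a tick in its own row. The ticks at Cacng1 gather within 16 kb of the start and those at Casq2 in the first part of the gene, whereas those at Ryr1 and Atp2a2 lie beyond the far end and Atp2a1 has none.

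The voltage sensor is formed by Cacna1s, the pore subunit of the L-type calcium channel of skeletal muscle, together with auxiliary subunits that include Cacng1, the gamma subunit of that channel. Cacng1 was the gene with called binding at its own start. A Myog_Bex interval of 213 bp at chr11:107577850-107578062 was centred 120 bp upstream of the TSS, and the nearest Myog_Ctl interval was one 15.3 kb upstream of the TSS. A Myog_Bex centre within 1 kb of a TSS was found at 3.72% of all protein-coding genes and a Myog_Ctl centre at 6.05%. A p300 region was called at the same place in both conditions, as a 159 bp interval in control (chr11:107577988-107578146) and a 158 bp interval with bexarotene (chr11:107577991-107578148), centred 234 bp upstream of the TSS. The combination of Myog_Bex, both p300 lists and no Myog_Ctl within 1 kb of a TSS was held by 50 protein-coding genes or 0.224%, a comparison chosen after the values at Cacng1 were seen.

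A matching pair lay in intron 1 of Cacng1. There a Myog_Bex interval of 243 bp at chr11:107575682-107575924, 2.03 kb into the gene, had no counterpart in Myog_Ctl and overlapped p300 intervals of both conditions. The p300 interval there measured 201 bp in control (chr11:107575793-107575993) and 378 bp with bexarotene (chr11:107575700-107576077). Further upstream, 15.3 kb from the TSS, myogenin and p300 were called together in both conditions, myogenin at chr11:107593020-107593191 in control and chr11:107592997-107593230 with bexarotene, and p300 at chr11:107592920-107593179 and chr11:107592932-107593132. A p300 interval of 319 bp, 12.2 kb upstream, was unique to control. In the bexarotene lists the myogenin and p300 centres of the 3 places lay 0.086, 0.114 and 0.082 kb apart, from intron 1 outward.

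**Figure D4:**
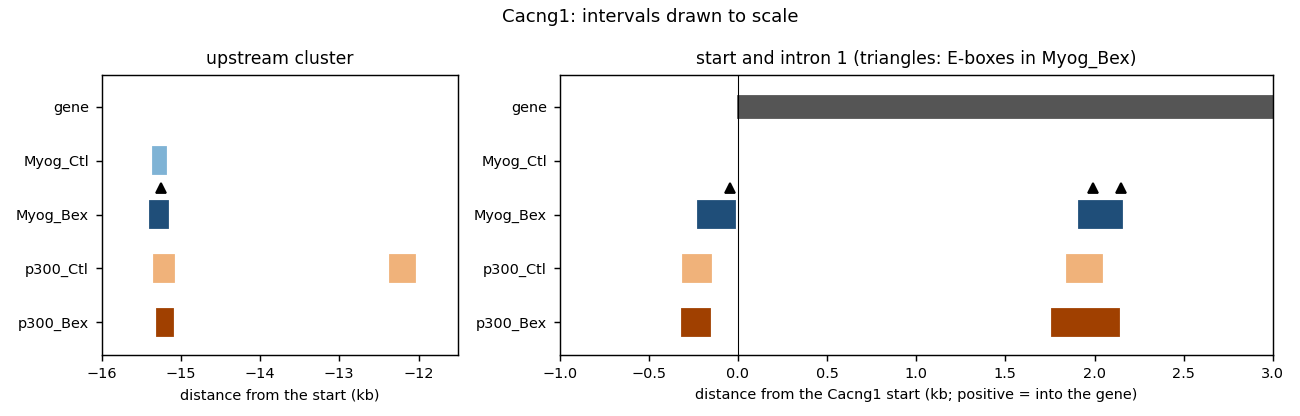
Intervals of the 4 lists at Cacng1 drawn to scale against the distance from its start in kb (horizontal axis, positive into the gene), with the region upstream on the left, the start and intron 1 on the right, and E-boxes of the Myog_Bex intervals as triangles. The bars for both p300 lists and Myog_Bex overlap at all 3 places, and the Myog_Ctl row is filled at the upstream place only.

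The pair of Cacng1 intervals that were unique to bexarotene carry the difference in myogenin calling at this gene. Their sequences are shown, the first as the interval within 1 kb of the TSS and the second as the gene's longest myogenin interval. Each is the central 200 bases of the interval on the plus strand of mm9, with the E-boxes in capitals. The palindromic E-box searched was CAGCTG. The other E-box was CACCTG, which reads as CAGGTG on the opposite strand. E-box means these here, and not the wider form CANNTG, which was counted as an alternative. Cacng1 is transcribed from the minus strand, so its start lies to the left of the first of them.
Cacng1 start, chr11:107577856-107578055: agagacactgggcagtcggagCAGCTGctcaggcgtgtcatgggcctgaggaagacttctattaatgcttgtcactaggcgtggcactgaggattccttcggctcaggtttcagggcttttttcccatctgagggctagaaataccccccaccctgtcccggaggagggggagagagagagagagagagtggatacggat
Cacng1 intron 1, chr11:107575703-107575902: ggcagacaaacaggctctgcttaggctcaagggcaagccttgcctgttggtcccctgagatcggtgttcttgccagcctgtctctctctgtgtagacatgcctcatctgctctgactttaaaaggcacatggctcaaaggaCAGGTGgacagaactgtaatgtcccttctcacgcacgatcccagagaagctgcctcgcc
The start interval holds 1 E-box, CAGCTG, at chr11:107577877-107577882, 41 bases upstream of the TSS and 76 bp from the centre of the interval. The interval in intron 1 holds a CAGGTG 44 bp from its centre and, outside the printed bases, a CAGCTG 116 bp from it.

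Cacna1s had a single myogenin region, shared by both conditions, at the far side of its window. It was called at chr1:137904305-137904476 in control and chr1:137904444-137904659 with bexarotene, 44.8 kb upstream of Cacna1s and 244 bp from the TSS of Tmem9. The control and bexarotene intervals overlapped at their edges only, and with a reciprocal overlap of 50% they were not joined. The 4 p300 regions of Cacna1s were all unique to control. They lay 2.21 kb upstream of the TSS, in intron 2 of the gene, and 7.13 and 16.7 kb beyond its end, where the nearest TSS was that of Kif21b. The intronic interval, 322 bp at chr1:137963196-137963517, was the longest of them and held 2 E-boxes near its centre. The Myog_Bex interval of the shared myogenin region has E-boxes of both kinds, with 37 bases between them, and the Myog_Ctl interval ends before them and holds none.
Cacna1s upstream, chr1:137904452-137904651: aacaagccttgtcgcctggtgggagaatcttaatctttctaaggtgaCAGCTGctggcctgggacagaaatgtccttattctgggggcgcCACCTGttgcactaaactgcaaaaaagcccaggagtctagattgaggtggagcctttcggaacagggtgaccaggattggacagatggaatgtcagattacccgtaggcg

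Ryr1 encodes the calcium release channel of the skeletal muscle sarcoplasmic reticulum. It had 4 Myog_Ctl and 2 Myog_Bex intervals and 2 p300_Ctl intervals, none of them in its body of 121.8 kb or near its start. All lay 32.9 to 47.9 kb beyond the end of the gene, and the nearest TSS of each was one of the annotated starts of Actn4, which encodes an alpha-actinin. A pair of shared myogenin regions was called 7555 and 7968 bp upstream of the nearest of these starts, and a pair unique to control lay in intron 1 of Actn4, 2582 and 3015 bp from their nearest start. The p300 intervals, unique to control, lay in the same intron. The longest interval, 265 bp at chr7:29754782-29755046 with bexarotene and 239 bp at chr7:29754719-29754957 in control, holds 1 E-box, CACCTG.
Ryr1 downstream, chr7:29754814-29755013: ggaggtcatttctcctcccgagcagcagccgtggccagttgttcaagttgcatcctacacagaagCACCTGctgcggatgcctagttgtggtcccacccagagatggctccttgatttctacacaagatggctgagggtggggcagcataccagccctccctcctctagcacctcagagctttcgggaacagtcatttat

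Triadin, encoded by Trdn, and calsequestrin, encoded by Casq1 and Casq2, form the calcium store complex at the release channel. Trdn had a single interval of any list. It was a Myog_Bex interval of 168 bp, the smallest length in that list, in intron 5 at chr10:32899691-32899858, 96.5 kb from the TSS. It holds 1 CAGGTG 7 bp from its centre.
Trdn intron 5, chr10:32899691-32899858: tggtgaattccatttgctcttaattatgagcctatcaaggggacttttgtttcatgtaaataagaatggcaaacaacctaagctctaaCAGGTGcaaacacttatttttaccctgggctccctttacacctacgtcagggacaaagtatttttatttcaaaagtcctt

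Casq2 had 3 Myog_Bex intervals against 1 in Myog_Ctl, all in intron 1. The shared region, 9.04 kb from the TSS, measured 172 bp in control (chr3:101899582-101899753) and 317 bp with bexarotene (chr3:101899441-101899757). The regions unique to bexarotene lay 12.8 and 14.9 kb from the TSS, and the second of them (chr3:101905396-101905563) overlapped the single p300 interval of this gene, which was called in control only (chr3:101905440-101905598). That myogenin interval holds neither of these E-boxes but has 2 of the wider form CANNTG near its centre, while the other 2 intervals each hold 1 E-box. No p300_Bex interval was listed at Casq2. The shared interval is shown, with its CACCTG near its right edge.
Casq2 intron 1, chr3:101899499-101899698: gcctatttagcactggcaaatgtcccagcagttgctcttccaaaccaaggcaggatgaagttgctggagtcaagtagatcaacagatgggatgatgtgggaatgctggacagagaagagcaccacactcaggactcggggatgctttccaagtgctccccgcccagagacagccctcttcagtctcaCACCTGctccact

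At Casq1 the myogenin calls of both conditions were at different places and in other genes. The Myog_Ctl interval lay 22.8 kb upstream in intron 11 of Atp1a4, which encodes a subunit of the sodium pump, and the Myog_Bex interval 39.8 kb beyond the end of Casq1 in intron 3 of Dcaf8 (chr1:174100079-174100246). Both had the smallest length of their list. No overlap of the factors was called at Casq1, and the p300 calls were closer to it than the myogenin calls. A p300 interval unique to control lay in intron 2, 2.39 kb from the TSS, and a shared p300 region lay 9.47 kb upstream, at chr1:174159389-174159615 in control and chr1:174159397-174159593 with bexarotene. The Myog_Ctl interval, shown as the longest myogenin interval of the gene, is the one printed with neither CAGCTG nor the other E-box counted here, and the Myog_Bex interval holds a CAGCTG 6 bp from its centre.
Casq1 upstream, chr1:174172777-174172948: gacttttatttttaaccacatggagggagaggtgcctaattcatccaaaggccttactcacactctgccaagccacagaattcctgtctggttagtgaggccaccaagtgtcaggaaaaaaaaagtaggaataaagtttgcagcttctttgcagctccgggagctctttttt

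Jph1 and Jph2 encode junctophilins, which tether the sarcoplasmic reticulum to the cell membrane. Jph1 had 1 myogenin region, shared and in intron 2, 12.5 kb from the TSS. It measured 217 bp in control (chr1:17075259-17075475) and 329 bp with bexarotene (chr1:17075233-17075561), the longest Myog_Bex interval at these genes, and holds a pair of CAGCTG with 17 bases between them. The 5 p300 regions of Jph1 were all unique to control, at 37.7 and 38.8 kb in intron 2, 89.9 kb in intron 3, and 100.9 and 136 kb from the TSS beyond the end of the gene. None of them overlapped the myogenin region.
Jph1 intron 2, chr1:17075297-17075496: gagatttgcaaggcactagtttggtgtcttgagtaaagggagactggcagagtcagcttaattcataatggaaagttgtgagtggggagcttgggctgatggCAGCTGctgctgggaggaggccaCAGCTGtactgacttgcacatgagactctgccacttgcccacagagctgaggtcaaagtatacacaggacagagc

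Jph2 had 3 intervals in each myogenin list. The shared ones lay in intron 2, 41.2 kb from the TSS (chr2:163182245-163182506 in control and chr2:163182333-163182570 with bexarotene), and in intron 1, 10.96 kb from the TSS (chr2:163212620-163212791 and chr2:163212637-163212804). The region unique to bexarotene lay in intron 2, 33.0 kb from the TSS, and the one unique to control 21.9 kb upstream, 354 bp from the TSS of 3230401D17Rik. Of the 4 p300_Ctl intervals, all within the gene, the one in intron 1 at chr2:163212540-163212957 was the longest p300 interval at these genes, with 418 bp, and covered the shared myogenin region. No p300_Bex interval was called there. The single shared p300 region was in intron 2, at chr2:163170749-163171073 in control and chr2:163170792-163171119 with bexarotene, away from the myogenin calls. The longest myogenin interval carries a CAGCTG.
Jph2 intron 2, chr2:163182276-163182475: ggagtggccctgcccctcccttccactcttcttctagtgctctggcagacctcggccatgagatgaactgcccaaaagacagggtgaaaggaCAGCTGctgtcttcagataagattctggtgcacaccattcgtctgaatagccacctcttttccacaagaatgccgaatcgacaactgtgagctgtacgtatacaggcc

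Atp2a1 and Atp2a2 encode the calcium pumps SERCA1 and SERCA2, which return calcium to the reticulum. Atp2a1 had no interval of any list within 50 kb. The closest were 144 kb (p300_Ctl), 308 kb (Myog_Bex), 435 kb (Myog_Ctl) and 487 kb (p300_Bex) from its body. Atp2a1 and Ryr1 are on chromosome 7, which among the 19 autosomes had the lowest density of intervals in every list, at 0.141, 0.165, 0.527 and 0.189 per 100 kb for Myog_Ctl, Myog_Bex, p300_Ctl and p300_Bex, against medians of 0.205, 0.244, 0.882 and 0.369. The part of this in the absence of calls at Atp2a1 was not tested.

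Atp2a2 had 1 shared myogenin region and no p300 interval. The region measured 313 bp in control (chr5:122889451-122889763), the longest Myog_Ctl interval at these genes, and 210 bp with bexarotene (chr5:122889546-122889755). It lay 13.8 kb beyond the end of Atp2a2 in intron 8 of Anapc7, which encodes a subunit of the anaphase-promoting complex, and 1733 bp from the nearest annotated start of that gene. Its sequence is shown as that of the longest myogenin interval of the gene. The sequence holds 4 CAGCTG, the most of any myogenin interval at these genes, with 61, 10 and 32 bases between them.
Atp2a2 downstream, chr5:122889507-122889706: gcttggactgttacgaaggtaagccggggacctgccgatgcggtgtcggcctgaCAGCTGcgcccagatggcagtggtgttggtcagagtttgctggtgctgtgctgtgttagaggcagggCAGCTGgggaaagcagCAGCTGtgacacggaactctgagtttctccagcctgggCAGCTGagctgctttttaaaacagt

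The E-boxes were counted within 50 bp of the centre on both strands. Of the 20 myogenin regions 13 held 1 or more of the E-boxes spelled out above there (65%, 95% Wilson interval 43.3 to 81.9), against 50.4% of all myogenin regions counted in the same window. By list 10 of 13 Myog_Ctl intervals held one (76.9%, 49.7 to 91.8), against 47.7% of that list, which lay below the interval, and 11 of 16 Myog_Bex intervals (68.8%, 44.4 to 85.8), against 60.3%. The wider form was found in 18 of the 20 regions. By list it was in 11 of 13 Myog_Ctl intervals (84.6%, 57.8 to 95.7), against 67.0% of that list. It was in 15 of 16 Myog_Bex intervals (93.8%, 71.7 to 98.9), against 78.9%. By class the E-boxes spelled out above were in 7 of 9 shared regions, 4 of 7 unique to bexarotene and 2 of 4 unique to control. In the whole lists the shares were 70.4%, 52.02% and 27.8%. Over the whole interval, read in the bexarotene interval where there was one, all 9 shared regions, 6 of the 7 unique to bexarotene and 2 of the 4 unique to control held an E-box, against 89.3%, 67.3% and 42.2% of such regions in the whole lists. In the Myog_Bex intervals 16 of 23 sites were CAGCTG (69.6%, 49.1 to 84.4), against 71.3% in the whole list, and in the Myog_Ctl intervals 11 of 15 (73.3%, 48.0 to 89.1), against 68.8%. Within 100 bp of the centre no member myogenin interval held the bZIP sequence TGANTCA, which occurred in 13.4% of the Myog_Ctl and 15.8% of the Myog_Bex list, and the Wilson intervals for 0 of 13 and 0 of 16 reached 22.8% and 19.4%. Of the 22 p300 regions 7 held an E-box near the centre (31.8%, 16.4 to 52.7, against 20.4% of all p300 regions), and the bZIP sequence was found in 7 of the 22, against 33.2%. Of the p300_Ctl intervals alone 8 of 22 held an E-box (36.4%, 19.7 to 57.0, against 19.6%) and 8 of 22 the Tead sequence GGAATG (36.4%, 19.7 to 57.0, against 18.7%), with both list values just below the interval. The Runx sequence TGTGGT was in 5 of 22 (22.7%, 10.1 to 43.4, against 31.1%). In the myogenin lists Tead was found in 3 of 13 Myog_Ctl and 4 of 16 Myog_Bex intervals (16.7% and 19.1% of the lists). Runx was found in 4 of 13 and 3 of 16 (25.6% and 29.6%). These list values all lay inside the members' intervals. The Mef2 consensus was in no member interval of any list. It was in 0.930% of the whole Myog_Ctl, 1.08% of the Myog_Bex, 0.599% of the p300_Ctl and 0.645% of the p300_Bex list. Many sequences and lists were looked at, and none of these shares was tested. A match to these letters is a description of the sequence and not of a bound site.

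**Figure D5:**
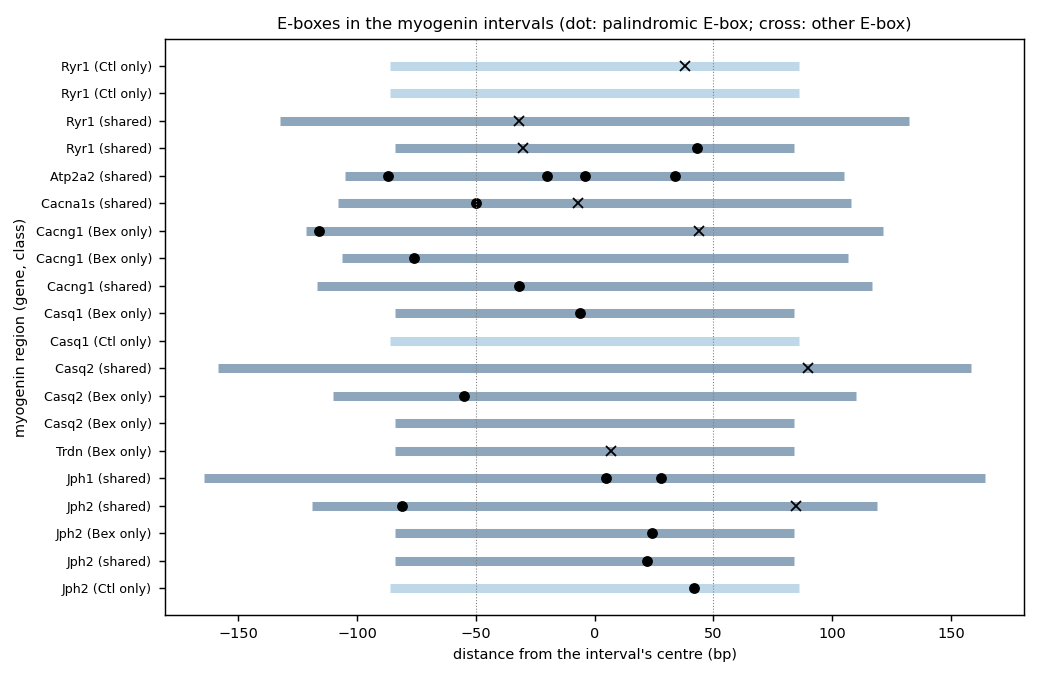
E-boxes in each of the 20 myogenin regions (rows, named by gene and class) against the distance from the centre of the interval in bp (horizontal axis), with bars for the length of the Myog_Bex interval, or of the Myog_Ctl interval in pale blue where the region was unique to control. Dotted lines mark 50 bp to either side, dots are CAGCTG and crosses the other E-box, and the row of Atp2a2 holds 4 dots while 3 rows, of Ryr1, Casq1 and Casq2, hold neither.

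Overlap of the factors was counted from either side. Of the Myog_Ctl intervals 2 of 13 overlapped a p300_Ctl interval (15.4%, 95% Wilson interval 4.33 to 42.2), against 33.0% of the whole list, and of the Myog_Bex intervals 3 of 16 overlapped a p300_Bex interval (18.8%, 6.59 to 43.0), against 25.6%. From the p300 side 2 of 22 p300_Ctl intervals overlapped a Myog_Ctl interval (9.09%, 2.53 to 27.8), against 8.79% of the list, and 3 of 5 p300_Bex intervals, all at Cacng1, overlapped a Myog_Bex interval (60%, 23.1 to 88.2), against 18.5%. A Myog_Bex interval was overlapped by 5 of the 22 p300_Ctl intervals (22.7%, 10.1 to 43.4), against 10.8%. A Myog_Ctl interval was overlapped by 1 of 5 p300_Bex intervals (20%, 3.62 to 62.4), against 15.3%. From the myogenin side 5 of 16 Myog_Bex intervals overlapped a p300_Ctl interval (31.25%, 14.2 to 55.6), against 36.1%. Of the Myog_Ctl intervals 1 of 13 overlapped a p300_Bex interval (7.69%, 1.37 to 33.3), against 23.7%. Overlap within a condition was found in control at Cacng1 and Jph2, against 11.9% of all protein-coding genes. With bexarotene it was found at Cacng1 alone, against 9.68%. Across conditions 5 myogenin regions overlapped a p300 interval, 3 at Cacng1 and 1 each at Casq2 and Jph2, where the p300 interval was called in control only. These 5 regions hold the 5 Myog_Bex intervals that overlapped a p300_Ctl interval, against 36.1% of the whole Myog_Bex list. Without Cacng1 the overlaps within a condition fell to 1 in control and 0 of 13 with bexarotene.

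Many intervals had exactly the smallest length of their list, which was 172 bp in Myog_Ctl, 168 bp in Myog_Bex, 159 bp in p300_Ctl and 158 bp in p300_Bex. The 4 myogenin regions unique to control all had the smallest length of their list, against 75.6% of such regions in the whole lists. The numbers were 4 of the 7 myogenin regions unique to bexarotene, against 69.7%, and 8 of the 17 p300 regions unique to control, against 46.2%. The median length of the member intervals was 172 bp in Myog_Ctl, 214.5 bp in Myog_Bex, 204 bp in p300_Ctl and 201 bp in p300_Bex, against 172, 189, 230 and 197 bp in the whole lists.

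Another 24 genes of calcium handling were searched in the same way, from a list chosen for their roles. Of these 16 had a Myog_Ctl, 15 a Myog_Bex, 20 a p300_Ctl and 15 a p300_Bex interval within 50 kb, where the shares of all protein-coding genes were 32.3%, 32.9%, 53.8% and 35.2%. The counts for the 24 genes were not set per length searched, so the length of their windows is not taken into account. A shared myogenin region was present at 14 of the 24 (17.5% of all protein-coding genes), one unique to bexarotene at 11 (25.1%) and one unique to control at 8 (23.0%). A p300 region unique to bexarotene was present at 10 of the 24 and at 0 of the 10 members, against 14.4% of all protein-coding genes. Among partners of the voltage sensor, Cacna2d1, an alpha-2-delta subunit, had 1 Myog_Ctl and 4 Myog_Bex intervals, and Stac3, an adaptor of the channel, had p300_Ctl intervals alone. Among junction genes Ryr3, a second release channel, had 3 and 4 myogenin and 9 and 4 p300 intervals in control and bexarotene, and Mtm1, a lipid phosphatase, was the gene with none. Among pump genes and their regulators Atp2a3, the gene of SERCA3, had 1 Myog_Ctl and 3 Myog_Bex intervals, and Sln, which encodes the pump inhibitor sarcolipin, had 2 in each. A myogenin region within 1 kb of the gene's own TSS was found at 6 of the 24, which were Ryr3, Atp2a3, Hrc, Pvalb, S100a1 and Orai1, and at Cacng1 alone of the 10 members, against 8.05% of all protein-coding genes. Orai1, the channel of store-operated calcium entry, had the most myogenin intervals of either set with 7 in each condition. Only 2 of its myogenin regions had the TSS of Orai1 as the nearest. Fewer Myog_Bex than Myog_Ctl intervals were called at Cacnb1 (3 against 5), Jsrp1 (3 against 5), Tmem38a (4 against 5) and Slc8a1 (0 against 1). Besides the genes named above, more were called at Tmem38b (3 against 2) and Slc8a3 (3 against 1). The nearest protein-coding TSS to a myogenin region was the gene's own at 10 of the 24, against 22.2% of all protein-coding genes. At Sln, Cacnb1, Jsrp1 and Slc8a1 it was that of another gene for every myogenin region.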

How the data were processed

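Myogenin and p300 were measured by ChIP-seq in C2C12 cells. The authors mapped reads to the mm9 genome (Bowtie for p300, BWA-MEM for myogenin), took out duplicates using Picard, and ran HOMER findPeaks library by library. The 4 deposited lists hold interval positions with no score, counts or input values, so depth is unknown here. Positions are printed counted from 1. Input and H3K27me3 libraries were not used here.

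Intervals within 50 kb of the gene bodies (GENCODE vM1, mm9) were taken. Overlap needed 1 bp, and distances ran from interval centres (the bexarotene interval where present) to TSS of protein-coding transcripts. Every interval overlapping the other factor, lying within 1 kb of a member TSS or longest of its gene was to be printed, and those added beyond this rule were chosen after their values were seen. Of the other calcium genes 24 of 24 were matched by symbol. The members and lists were chosen with earlier results of these data known. Shares carry 95% Wilson intervals and densities exact Poisson intervals. Alternatives changed the window, overlap rule, interval length, TSS rule and E-box rule, and left out Cacng1. Python 3.11.15, scipy 1.17.1 and matplotlib 3.10.9 were used, and the functions were tested on simulated data.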

Additional observations from a re-analysis of the deposited data

How the results depend on the processing

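With 1 library per condition and positions alone, neither the peak threshold nor replicate error could be examined. No paired analysis was possible because the results come from no test. Of 76 values recomputed under alternatives, 25 moved, counts by over 1.5 times and densities out of the 95% interval of the reported one, and 51 did not. With a window of 10 kb, myogenin regions unique to control fell to 0 and shared ones to 4, genes with Myog_Ctl and Myog_Bex to 3 and 5, and Myog_Ctl intervals overlapping p300 to 1. With 100 kb, myogenin regions unique to bexarotene were 11, p300 regions unique to control 27, shared 9 and unique to bexarotene 2, and overlaps with p300 were 5 in each condition. Dropping intervals of the smallest length turned some shared myogenin regions into ones unique to bexarotene. Over the longer intervals, myogenin regions were 0 unique to control and 4 shared, p300 regions unique to control 9, and Myog_Ctl overlaps 0. Where the nearest TSS had to be the member's, these were 0, 4 and 11, and genes with Myog_Ctl and Myog_Bex 4 and 5. Within 5 kb of a TSS lay 2 myogenin and 4 p300 regions. Without Cacng1, an alternative chosen after seeing the data, p300 had 2 shared regions, and overlaps were 1 in control and 0 with bexarotene. The Myog_Ctl density stayed inside its wide interval at 0.366 per 100 kb with 10 kb, but its interval at 10 kb also held the value of all protein-coding windows, and the p300_Bex density without Cacng1 was 0.112. Reciprocal overlap of 50% and the E-box rules moved no count by over 1.5 times.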
